A study of Rattus norvegicus with 27 samples.

Results

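The respiratory chain and ATP synthase genes described here are the 90 genes, of 14217 measured with a probe set of a single symbol, whose symbol starts with Nduf, Sdha, Sdhb, Sdhc, Sdhd, Uqcr, Cox4, Cox5, Cox6, Cox7, Cox8 or Atp5. They comprise 36 genes of complex I, 4 of complex II, 7 of complex III, 17 of complex IV, 16 of the ATP synthase and 10 assembly factors of complexes I and II. Oligodendrocyte precursor cells (OPCs) were purified from the cortices of rat pups of postnatal day 4 to 6 with A2B5 magnetic beads and expanded in PDGF (20 ng/mL). RNA was hybridised to 27 Affymetrix rat arrays, 3 donors for each of 9 groups. PDGF cultures were collected at 0 h, and cultures moved to T3 (10 nM), or to T3 with IFNγ (10 ng/mL, T3+IFNγ), were collected at 8, 24, 48 and 96 h. T3 is a thyroid hormone that induces OPCs to differentiate, and IFNγ is an inflammatory cytokine made by T cells. A difference between T3 and PDGF cultures includes the loss of PDGF and the time in culture, since PDGF cultures were collected at 0 h only.

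Complex I takes electrons from NADH and complex II takes them from succinate. They pass through complexes III and IV to oxygen, complexes I, III and IV pump protons across the inner mitochondrial membrane, and the ATP synthase makes ATP from the gradient. Myelinating oligodendrocytes build large amounts of membrane and are known to survive on glycolysis when complex IV is lost. The nuclear promoters of these genes are known for binding sites of NRF1, of the ETS factor GABP, of estrogen-related receptors (ERR) and of YY1.

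Signals are on the log2 scale of the deposited values, so a difference of 1 is 2-fold, and the brightness of a probe set does not rank its gene's expression against another gene's. As a check for dim probe sets, 82 of the 90 had a mean signal above the median of all gene means (7.21). The 8 others were Cox4i2, Cox6a2, Cox6c-ps1, Cox7a1, Cox7b2, Cox8b, Ndufa4l2 and Ndufaf1. The median percentile of the 90 in mean signal among all genes was 96.4. Shares of all genes given below therefore come mostly from dimmer probe sets. Genes were called by limma where the p adjusted over all 14217 genes was under 0.05. By the F test over the 9 groups 68 of 90 genes were called, beside 68.8% of all genes. The calls were 31 of 36 in complex I, 3 of 4 in complex II, 7 of 7 in complex III, 8 of 17 in complex IV, 9 of 16 in the ATP synthase and 10 of 10 among the assembly factors. The count over the 90 was 50 without donor 1, 38 without donor 2 and 41 without donor 3.

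The arrays differed little in their medians (5.95 to 6.03), but 2 of donor 2 stood apart in an RNA quality control. The 3′ minus 5′ signal of Gapdh was 0.37 in T3+IFNγ at 8 h and 0.11 in T3+IFNγ at 24 h for donor 2, and ranged from −0.26 to 0.07 in all others. The same difference for actin was 1.34 and 1.47 in these 2 arrays, 1.16 in T3+IFNγ at 48 h for donor 2, and 0.76 to 1.15 in all others. The 4 oligodendrocyte markers measured averaged 5.70 to 5.84 in PDGF, 13.11 to 13.26 in T3 at 96 h and 11.25 to 12.20 in T3+IFNγ at 96 h. The 5 microglial markers averaged 6.15 to 7.33 in PDGF, 4.999 to 5.217 in T3 at 96 h and 5.88 to 7.60 in T3+IFNγ at 96 h, and 4 of 5 were called higher with IFNγ on the mean of the 4 times. OPC markers averaged 9.52 to 10.48 over all arrays, astrocyte markers 9.13 to 11.67 and neuronal markers 6.09 to 7.73, while fibroblast and vascular markers stayed at 4.06 to 4.40. In these mixed RNA samples fewer cells of a type and less RNA per cell cannot be told apart.

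RefSeq promoter windows from 250 bases before to 50 after the start (build GRCr8) were found for 82 of the 90 genes and for 11700 of the genes tested. The windows were searched on both strands for GCGCATGC (NRF1), CCGGAAGT (ETS), TCAAGGTCA (ERR) and AAGATGGCG (YY1), of which GCGCATGC can overlap its own reverse complement. The NRF1 letters stood in 9 of 82 windows (11%, beside 4.29% of genes tested), the ETS letters in 8 (9.76%, beside 6.82%), the ERR letters in 2 (2.44%, beside 0.214%) and the YY1 letters in 11 (13.4%, beside 3.14%). In all, 28 of the 82 windows held at least 1 of the 4. The 120 bases before the start are shown for 3 genes with the ETS letters, chosen after their values were seen, that were called higher with T3 at 24, 48 and 96 h, Cox5b (chr9:46417717-46417836, plus strand), Cox8a (chr1:213833624-213833743, minus strand) and Ndufa13 (chr16:19560406-19560525, plus strand). Capitals mark the ETS letters or their reverse complement.
Cox5b: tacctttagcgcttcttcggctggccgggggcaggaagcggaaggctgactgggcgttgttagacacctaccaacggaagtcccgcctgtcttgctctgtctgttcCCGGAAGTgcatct
Cox8a: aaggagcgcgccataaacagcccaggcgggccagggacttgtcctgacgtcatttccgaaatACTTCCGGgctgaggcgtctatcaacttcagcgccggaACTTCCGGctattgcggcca
Ndufa13: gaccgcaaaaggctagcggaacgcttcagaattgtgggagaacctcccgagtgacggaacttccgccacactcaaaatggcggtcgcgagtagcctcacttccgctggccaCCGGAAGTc

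The same stretch is shown for 3 genes with the NRF1 letters, chosen in the same way, that were called lower with T3 at 96 h, Ndufa11 (chr9:1637494-1637613, plus strand), Ndufaf5 (chr3:147961492-147961611, plus strand) and Atp5po (chr11:44657484-44657603, minus strand). The call of Atp5po was lost whichever donor was left out, and its change was 0.0293 with the mean of its probe sets. Capitals mark the NRF1 letters on either strand, which overlap in all 3.
Ndufa11: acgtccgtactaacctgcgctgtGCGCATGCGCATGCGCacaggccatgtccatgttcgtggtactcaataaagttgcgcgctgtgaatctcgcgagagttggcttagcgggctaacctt
Ndufaf5: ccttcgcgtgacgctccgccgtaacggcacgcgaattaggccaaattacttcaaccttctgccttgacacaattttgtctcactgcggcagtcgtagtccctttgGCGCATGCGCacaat
Atp5po: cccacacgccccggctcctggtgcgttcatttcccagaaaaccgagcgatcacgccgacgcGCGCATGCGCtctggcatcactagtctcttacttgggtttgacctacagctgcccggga

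The YY1 letters lay at or just after the start in 10 of the 11 windows, and 7 of the 11 genes belong to complex I. They are shown in capitals within 30 bases for Ndufs6 (chr1:31797413-31797442, plus strand), Ndufb8 (chr1:253362896-253362925, minus strand) and Ndufaf8 (chr10:105879900-105879929, plus strand), which differed in their course with T3.
Ndufs6: ggtcgtcggcAAGATGGCGgcggcgctgac
Ndufb8: ggagaaggtgAAGATGGCGgcgtcccgggc
Ndufaf8: ggcagggcccAAGATGGCGgcgcccacaag

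With T3, most of the 90 genes lay slightly above PDGF at 8 and 24 h, and by 96 h as many lay below as above. At 8 h 79 of the 90 were above their PDGF mean, 74 of them among the 80 subunits, by a median of 0.11 (all genes 0.01), but 3 were called higher (all genes 7.31%) and 1 lower (5.37%). With the donor as a block, 10 were called higher and 2 lower. At 24 h 70 of the 90 were above 0 and the median change was 0.12, with 22 genes called higher (all genes 17.1%) and 10 lower (17.8%). The median at 48 h was 0.05, with 22 called higher (17.5%) and 12 lower (25.7%). By 96 h it was −0.0025, with 19 called higher (23.4%) and 18 lower (29.5%). Over genes above the median signal, the median change with T3 was 0.02, 0.01, −0.10 and −0.14 at 8, 24, 48 and 96 h. All 4 comparisons share the same 3 PDGF arrays. Without donor 3 there were 16 calls at both 24 and 48 h, and without donor 2 there were 24 at 96 h. The calls at 48 and 96 h depended on the scale: with each array centred on its median over all genes, which moved the median change of all genes to 0.13 and 0.17, the split became 34 higher against 7 lower for 48 h and 30 against 9 for 96 h. The median of the 90 was then 0.18 and 0.16, and the share of all genes called in that setting was not counted.

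The mean shift of each class from PDGF, taken in every array, showed the course by complex. At 8 h all 5 complexes stood above every PDGF array in all 3 donors. Complex I stood at 0.12 to 0.14 in the 3 donors after 8 h of T3, at 0.13 to 0.16 after 24 h, at 0.01 to 0.12 after 48 h and at −0.06 to 0.06 after 96 h. Complex III stood at 0.14 to 0.15 at 24 h and at 0.08 to 0.13 at 96 h, above all 3 PDGF arrays at each time. The ATP synthase stood at 0.05 to 0.06 at 24 h and at −0.18 to −0.05 at 96 h, below all 3 PDGF arrays. This mean includes the inhibitor Atp5if1, with a change of −1.08 at 96 h. The median change of the ATP synthase genes within each donor was −0.12, 0.01 and −0.01 at 96 h. Complex II stood at 0.10 to 0.18 at 8 h, and complex IV at 0.13 to 0.15 at 24 h and −0.01 to 0.04 at 96 h. With the arrays centred on their median the median changes of complex I and of the ATP synthase at 96 h turned above 0.

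**Figure D1:**
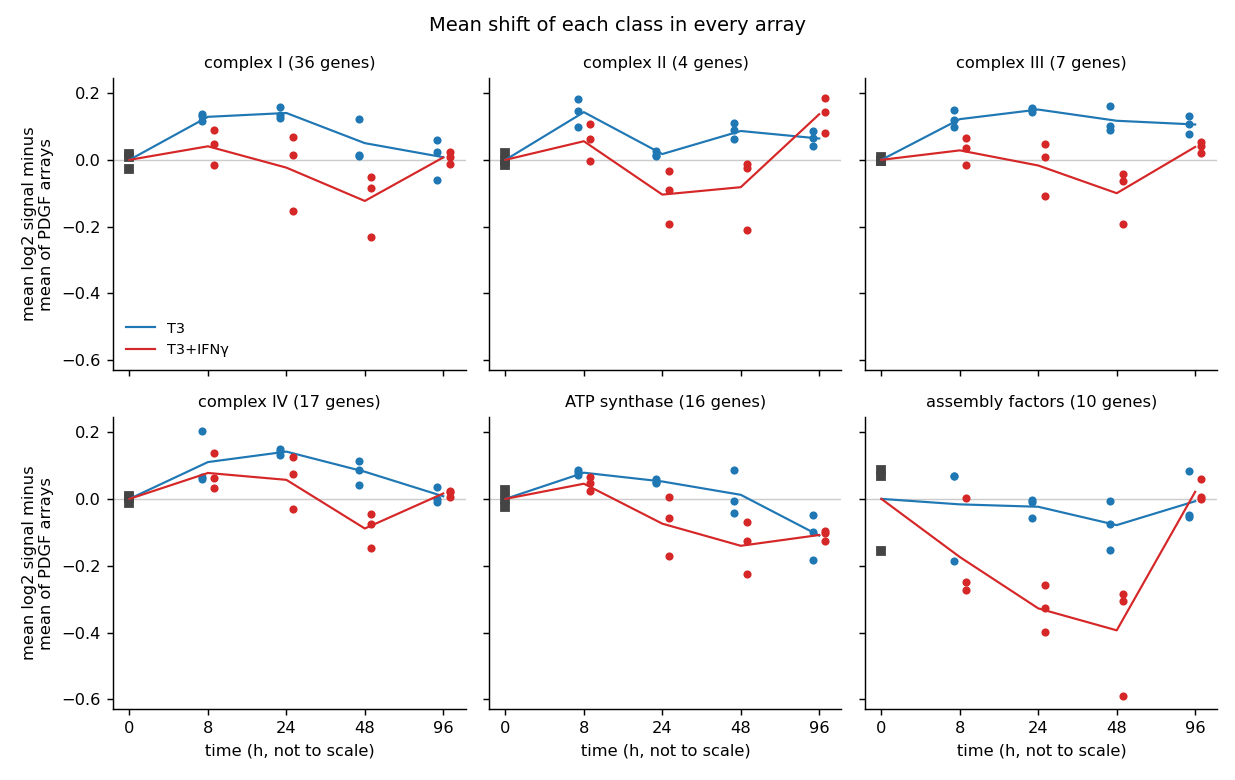
Mean log2 signal of each class minus its mean in the PDGF arrays (y axis) against time (x axis, not to scale); each point is 1 array, squares are PDGF, blue is T3, red is T3+IFNγ and lines join group means. The mean of T3+IFNγ lay below that of T3 at 24 and 48 h in all 6 panels, with assembly factors lowest at −0.39 on average at 48 h, and both lines met near 0 for complexes I and IV at 96 h.

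In complex I, 6 of 36 genes were called higher (all genes 23.4%) and 7 lower (29.5%) with T3 at 96 h. Ndufv3, a small subunit beside the NADH-binding flavoprotein, had signals of 9.26, 9.31 and 9.48 in PDGF, 9.65 to 9.86 after 8 h of T3, 10.21 to 10.37 after 24 h, 10.30 to 10.61 after 48 h and 10.70, 10.74 and 10.77 after 96 h. Each later group lay above all PDGF arrays, and the change at 96 h was 1.39 ± 0.12 (SE, n = 3 against 3, adjusted p = 1.69e-09), 2.61-fold. Its second, dimmer probe set rose too, by 0.56. Ndufs6, an accessory subunit at the base of the peripheral arm, had 11.14, 11.16 and 11.20 in PDGF, 11.25 to 11.41 from 8 to 48 h of T3, and 11.90, 11.96 and 11.99 after 96 h. It was called higher at 24 h. Its change was 0.13 at 48 h (adjusted p = 0.154), not called, and 0.79 ± 0.07 at 96 h (adjusted p = 2.54e-09). Ndufc2, Ndufa1, Ndufa7 and Ndufa13 rose by 0.41, 0.28, 0.27 and 0.22 at 96 h, and were also called at 24 and 48 h.

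Ndufa5 and Ndufab1 went the other way. Ndufa5, an accessory subunit of the arm that takes up electrons, had 10.24, 10.31 and 10.35 in PDGF and 9.35, 9.37 and 9.51 with T3 at 96 h, a change of −0.90 ± 0.13 (adjusted p = 2.5e-06). Ndufab1, the mitochondrial acyl carrier protein that also serves lipoic acid and iron-sulfur cluster synthesis, had 11.61, 11.68 and 11.76 in PDGF and 10.80, 10.89 and 11.13 at 96 h, a change of −0.75 ± 0.10 (adjusted p = 1.09e-06). Neither pair of groups overlapped. Ndufa12, Ndufb4 and Ndufa11 fell at 24, 48 and 96 h as well, and Ndufa11 was lowest at 48 h (−0.57, beside −0.28 at 96 h). Ndufb8, a membrane arm subunit, rose at 24 h (0.69 ± 0.10, adjusted p = 8.16e-06) and 48 h (0.47) and had a change of 0.19 at 96 h (adjusted p = 0.111). Ndufa4, named for complex I but now known as a subunit of complex IV, fell by 0.16 at 96 h (adjusted p = 0.0409), and its relative Ndufa4l2 had a change of −0.02.

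**Figure D2:**
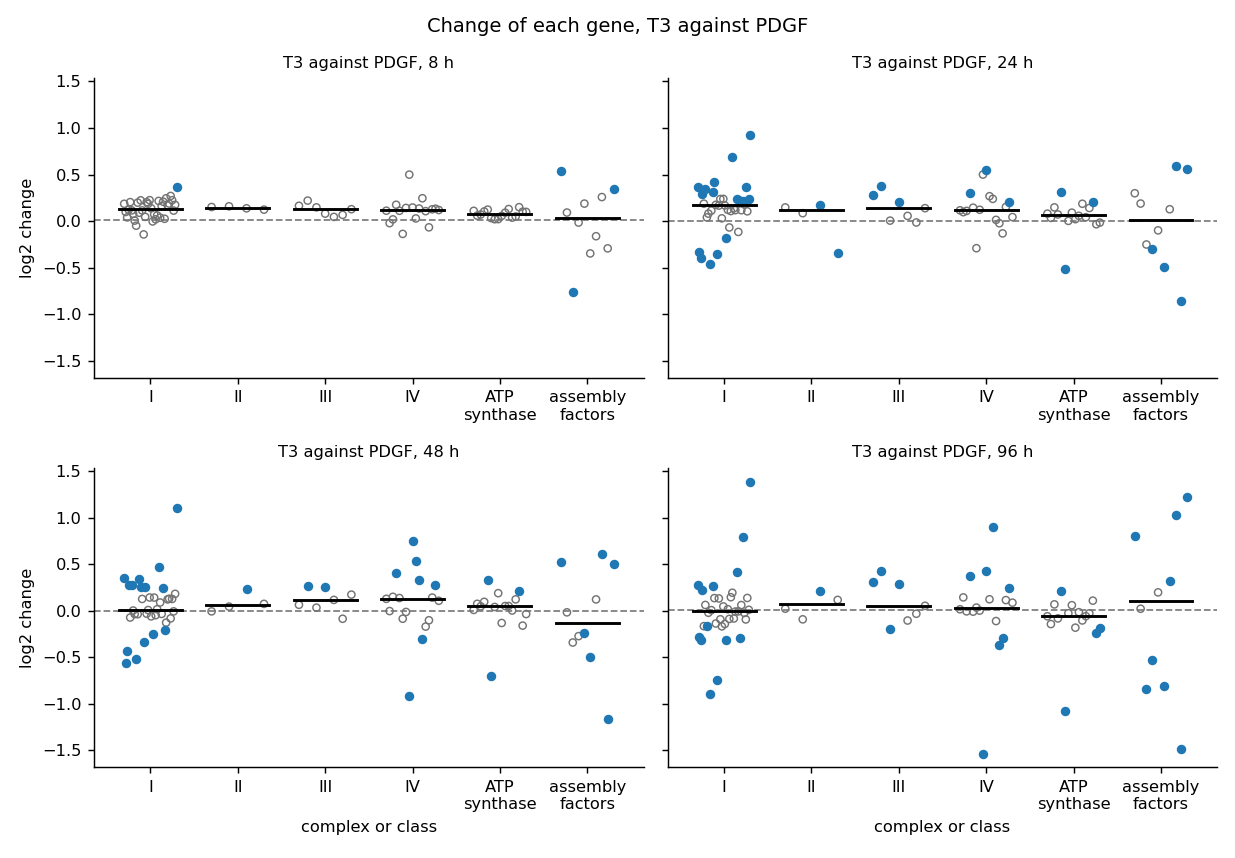
Log2 change of each of the 90 genes with T3 against PDGF (y axis) by complex (x axis) at 8, 24, 48 and 96 h; filled points were called at an adjusted p under 0.05, open points were not, black bars are class medians and the dashed line is the median of all genes. The class medians stay near 0 at 96 h while single genes spread from −1.54 (Cox6b2) to 1.39 (Ndufv3).

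In complex II, which also acts in the TCA cycle, the 4 subunits did not move together. The membrane anchor Sdhc rose at 24, 48 and 96 h, by 0.18, 0.23 and 0.21 (adjusted p = 0.0109 at 96 h). The other anchor, Sdhd, had 11.68, 11.75 and 11.78 in PDGF, 11.34, 11.42 and 11.43 with T3 at 24 h and 11.75 to 11.88 at 48 h. It fell at 24 h alone among the 4 times (−0.34 ± 0.07, adjusted p = 0.00039). The flavoprotein Sdha and the iron-sulfur protein Sdhb were called with T3 at no time, with changes of 0.02 and −0.09 at 96 h.

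The assembly factors of complex II had some of the larger changes among the 90 genes, in opposite directions. Sdhaf2, which helps attach FAD to Sdha, had 8.16, 8.35 and 8.61 in PDGF and 9.30, 9.44 and 9.49 with T3 at 96 h, a rise of 1.03 ± 0.13 (adjusted p = 3.62e-07). Sdhaf4, which acts on flavinated Sdha, had 8.49, 8.65 and 8.71 in PDGF and 9.69, 9.78 and 10.03 at 96 h, a rise of 1.22 ± 0.10 (adjusted p = 5.89e-10). Sdhaf3, which serves the maturation of Sdhb, had 7.95, 8.40 and 8.43 in PDGF, 7.32 to 7.52 at 24 h and 6.69, 6.76 and 6.89 at 96 h, a fall of 1.48 ± 0.15 (adjusted p = 1.65e-08). In each of the 3 the PDGF and 96 h arrays did not overlap. Sdhaf1 rose by 0.32 (adjusted p = 0.0184).

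Among the complex I assembly factors, Ndufaf1 rose by 0.80 ± 0.15 at 96 h (adjusted p = 8.87e-05) from a low signal of 6.21 to 6.80 in PDGF. Ndufaf4, Ndufaf8 and Ndufaf5 fell by 0.84, 0.81 and 0.53. Ndufaf4 had 9.31, 9.47 and 9.65 in PDGF and already 8.26, 8.79 and 9.09 with T3 at 8 h (−0.76 ± 0.18, adjusted p = 0.00751), the only gene of the 90 called lower at that time. At 24 and 48 h its changes were −0.25 and −0.34, not called.

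In complex III, Uqcr11, Uqcr10 and Uqcrc2 rose at 96 h by 0.43, 0.31 and 0.29, and the core protein Uqcrc1 fell by 0.20 (adjusted p = 0.0252). Uqcrc2, the other core protein, had 11.94, 11.95 and 11.95 in PDGF and 12.16, 12.24 and 12.28 with T3 at 96 h. The small subunits Uqcrh and Uqcrq and the Rieske iron-sulfur protein Uqcrfs1 were called with T3 at no time.

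In complex IV, Cox6c, a small subunit, was called higher from 24 h on. It had 12.23, 12.29 and 12.32 in PDGF, 12.76, 12.85 and 12.85 after 24 h of T3, 12.995, 13.000 and 13.094 after 48 h, and 12.66, 12.73 and 12.74 after 96 h. The peak was at 48 h (0.75 ± 0.07, adjusted p = 6.09e-09), and the change at 96 h was 0.43. Cox6c-ps1, a transcribed pseudogene of Cox6c, was called higher at 48 h too (0.54), and probes of near-identical copies may not tell them apart. Cox5b rose by 0.37 and Cox8a by 0.24 at 96 h, while Cox7b fell by 0.37 from 12.83 to 12.89 in PDGF to 12.30, 12.58 and 12.61.

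Among the paired isoforms of complex IV, 1 fell and 1 rose clearly. Cox6b2, the isoform known from testis, had 7.68, 7.95 and 8.51 in PDGF, 8.05, 8.26 and 9.33 after 8 h of T3, 8.42 to 8.63 after 24 h, 7.09, 7.14 and 7.17 after 48 h, and 6.49, 6.50 and 6.55 after 96 h. The fall of 1.54 ± 0.27 at 96 h (adjusted p = 3.73e-05) leaves no overlap with PDGF, whereas its widely expressed counterpart Cox6b1 had a change of 0.00. Cox7a1, the isoform of heart and skeletal muscle, had 5.83, 5.89 and 5.96 in PDGF and 6.71, 6.79 and 6.88 with T3 at 96 h, a rise of 0.90 ± 0.11 (adjusted p = 4.74e-07). The 4 muscle markers measured, Myh3, Ckm, Tnnt2 and Des, averaged 4.02 to 4.38 in all 27 arrays and none was called with T3 at 96 h. Cox7a2l, a factor of supercomplex assembly, was called lower at 48 h only (−0.31, adjusted p = 0.00643). Cox4i1 and Cox4i2, Cox6a1 and Cox6a2, and Cox8b had changes of −0.01 to 0.14 at 96 h, none called, and Cox7b2 fell by 0.30 at a signal near the bottom of the range.

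In the ATP synthase, 11 of 16 genes were called with T3 at no time (all genes 36.1%). These include Atp5f1a and Atp5f1b, the alpha and beta subunits of the catalytic head, with changes of −0.06 and −0.14 at 96 h, and the central stalk subunit Atp5f1c. Atp5if1, the inhibitor that blocks ATP hydrolysis when the gradient collapses, had 10.70, 10.82 and 10.88 in PDGF, 10.80 to 10.87 after 8 h of T3, 10.06, 10.33 and 10.48 after 24 h, 10.03, 10.08 and 10.19 after 48 h, and 9.62, 9.66 and 9.88 after 96 h. From 24 h no T3 array reached the PDGF arrays, and the fall at 96 h was 1.08 ± 0.12 (adjusted p = 8.37e-08), to 0.473 of the PDGF signal. Its other 2 probe sets, of mean signal 6.42 and 4.19, had changes of −0.29 and −0.30, not called. Atp5f1e rose by 0.21, and Atp5pf and Atp5po fell by 0.24 and 0.19. The second probe set of Atp5po had a change of 0.25, not called.

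**Figure D3:**
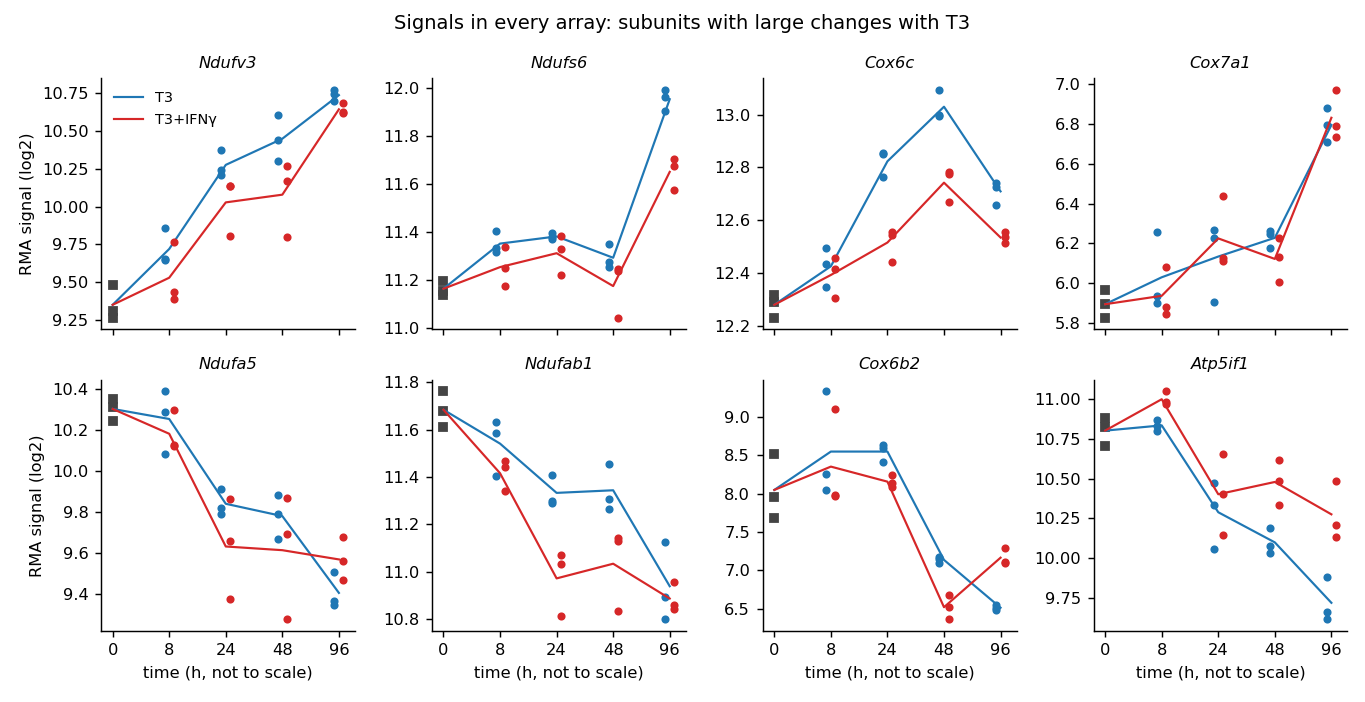
RMA signal on the log2 scale (y axis) against time (x axis, not to scale) for 8 genes; each point is 1 array, squares are PDGF, blue is T3, red is T3+IFNγ and lines join group means. With T3, Ndufv3 climbs from 9.35 to 10.74 on average, and Ndufs6 and Cox7a1 have their highest means at 96 h. Cox6b2 and Atp5if1 end lowest in T3 at 96 h.

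Over the 90 genes, 14 were called higher with T3 at all of 24, 48 and 96 h (all genes 10.1%) and 8 were called lower at all 3 times (14.6%). The 14 were Atp5f1e, Cox5b, Cox6c, Cox8a, Ndufa1, Ndufa13, Ndufa7, Ndufc2, Ndufv3, Sdhaf2, Sdhaf4, Sdhc, Uqcr11 and Uqcrc2, and the 8 were Atp5if1, Ndufa11, Ndufa12, Ndufa5, Ndufab1, Ndufaf8, Ndufb4 and Sdhaf3. No call was made with T3 at any time for 41 genes (all genes 36.1%). At 96 h the calls of Atp5f1e, Atp5pf, Atp5po, Ndufa13, Ndufa4, Sdhc and Uqcrc1 were lost whichever of the 3 donors was left out, those of Ndufa1, Ndufa7 and Sdhaf1 without donor 2 and without donor 3, that of Cox7b2 without donor 2 and that of Cox8a without donor 3. Of the genes whose promoters hold the printed letters, 0 of 9 with NRF1 letters were called higher and 5 lower with T3 at 96 h, 3 of 8 with ETS letters higher and 0 lower, 1 of 11 with YY1 letters higher and 3 lower, and 0 of 2 with ERR letters either way. All genes had 23.4% higher and 29.5% lower, and these small counts are a description without a test.

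With IFNγ, most of the 90 genes had lower signals than with T3 alone at 24 and 48 h, and at 96 h the median depended on the scale: it was 0.01 as deposited (all genes −0.02) and −0.116 with each array centred on its median (all genes −0.145). At 8 h the median change was −0.07 (all genes −0.04) and limma called no gene (all genes 3.69% higher and 1.58% lower), with 9 at an unadjusted p under 0.05 and 2 called with the donor as a block. At 24 h the median was −0.15 (all genes −0.04), 0 were called higher (5.96%) and 14 lower (6.35%). The 48 h median was −0.20 (all genes −0.05), with 28 called lower (8.53%) and 1 higher (7.58%). At 96 h, as deposited, 3 were called higher (7.91%) and 2 lower (5.63%). Over genes above the median signal, the median change with IFNγ was −0.06, −0.06, −0.05 and 0.02 at 8, 24, 48 and 96 h. On the mean of the 4 times 2 were called higher (12.7%) and 44 lower (18.5%). None of these called changes reached 2-fold.

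In every donor the shift at 48 h was downward. Taken within each donor, the median change of the 90 genes with IFNγ at 48 h was −0.11 in donor 1, −0.27 in donor 2 and −0.18 in donor 3, beside −0.03, −0.04 and −0.04 for all genes. Of the 90, 66 (73.3%) were lower in all 3 donors, beside 30% of all genes. The share among genes as bright as the 90 was not counted. Donor 2 had the largest shift at 24 h too (−0.24), where its array is one of the 2 with a high Gapdh 3′ minus 5′ value. At 48 h its actin 3′ minus 5′ value was 1.16 in T3+IFNγ and 0.82 in T3, beside 0.88 and 0.94 for donor 1 and 0.96 and 0.80 for donor 3, and its part in the shift was not tested. Leaving out those 2 arrays, 5 genes were called lower at 24 h. Without donors 1, 2 and 3 in turn, limma made 5, 1 and 3 calls at 24 h, 24, 3 and 4 at 48 h, 1 each at 96 h, and 39, 17 and 19 on the mean of the 4 times. Among the named genes, Ndufb5 and Sdhd kept their call at 48 h in all 3 of these, and Atp5f1b, Atp5f1e, Atp5if1, Atp5mpl, Cox6c, Ndufa2, Ndufaf8, Ndufb5, Sdhaf1, Sdhaf4, Sdhd and Uqcrc2 kept that on the mean. With each array centred on its median, the split was 45 lower against 0 higher for 48 h, 13 against 1 for 96 h, and 67 against 1 for the mean of the 4 times. Centring moved the median change of all genes to −0.130, −0.145 and −0.110, beside −0.280, −0.116 and −0.170 for the 90. The share of all genes called in that setting was not counted, so these splits cannot be set apart from the general shift. At 48 h the microglial markers averaged 5.06 to 6.23 in T3 and 6.07 to 8.24 in T3+IFNγ, with 1 of 5 called higher, and the oligodendrocyte markers 10.15 to 10.60 and 8.81 to 9.34, with 3 of 4 called lower. Their part in these values was not tested.

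**Figure D4:**
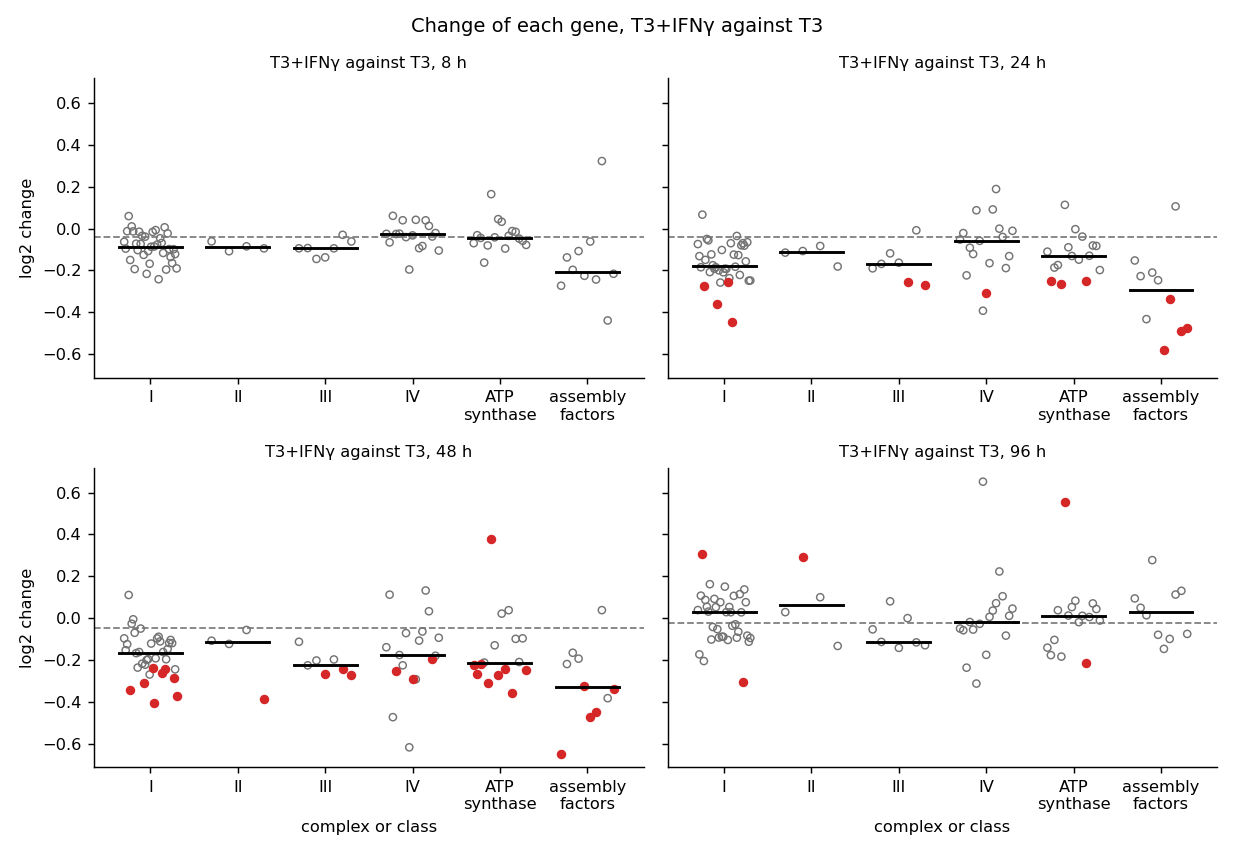
Log2 change of each of the 90 genes with T3+IFNγ against T3 at the same time (y axis) by complex (x axis); filled points were called at an adjusted p under 0.05, open points were not, black bars are class medians and the dashed line is the median of all genes. At 24 h 84 of the 90 points and at 48 h 82 lie below 0, with medians of −0.16 for complex I and −0.33 for assembly factors at 48 h, and class medians lie between −0.11 and 0.06 at 96 h.

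By complex, the called share on the mean of the 4 times was 19 of 36 lower in complex I, 1 of 4 in complex II, 7 of 7 in complex III, 2 of 17 in complex IV, 8 of 16 in the ATP synthase and 7 of 10 among the assembly factors. Of all genes 18.5% were called lower on this mean. The difference between complexes was not tested. In complex III the changes ran from −0.18 for Uqcrq and Uqcrc2 to −0.10 for Uqcrc1. Uqcrq, a small subunit, had 12.08, 12.11 and 12.11 with T3 and 11.77, 11.79 and 11.93 with T3+IFNγ at 24 h, and 12.02, 12.16 and 12.22 against 11.74, 11.88 and 11.96 at 48 h. The groups did not overlap at either time, with changes of −0.27 ± 0.07 at both (adjusted p = 0.0173 and 0.0133). Uqcrc2 had a change of −0.27 at 48 h, and Uqcrfs1 and Uqcr11 had mean changes of −0.14 and −0.15, both called. Cyc1, the cytochrome c1 subunit of complex III outside the name rule, fell by 0.38 at 48 h (adjusted p = 0.00597).

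In complex I, Ndufb5, a subunit of the membrane arm, had the lowest adjusted p of its class at 48 h. It had 11.30, 11.36 and 11.43 with T3 and 10.844, 10.997 and 11.032 with T3+IFNγ, a change of −0.41 ± 0.07 (−24.5%, adjusted p = 0.000444). At 96 h its change was −0.10, not called. Ndufa2 fell by 0.27 at 24 h and 0.34 at 48 h, Ndufab1 by 0.36 and 0.31, and Ndufv3 by 0.37 at 48 h. The second, dimmer probe set of Ndufv3 had a change of −0.13 at 48 h, not called. Ndufb8, which rose with T3 at 24 h, was lower by 0.44 with IFNγ at that time (adjusted p = 0.00386). Ndufs6 fell with IFNγ at 96 h, from 11.90, 11.96 and 11.99 to 11.58, 11.68 and 11.70 (−0.30 ± 0.07, adjusted p = 0.00468), which is the time of its largest rise with T3. Ndufa13, a subunit also known as Grim19 for its link to interferon and retinoid responses, was 1 of the 2 genes of the 90 called higher on the mean of the 4 times (0.14 ± 0.04, adjusted p = 0.0194), with 11.30, 11.32 and 11.35 in T3 and 11.54, 11.63 and 11.72 in T3+IFNγ at 96 h (0.31 ± 0.09, adjusted p = 0.0189).

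In complex II, Sdhd fell at 48 h from 11.75, 11.82 and 11.88 to 11.33, 11.43 and 11.51 (−0.39 ± 0.07, adjusted p = 0.000292), and its second probe set fell by 0.48. Sdhb had the opposite pattern. It had 11.93 to 11.98 in T3 and 11.67 to 11.97 in T3+IFNγ at 48 h, which overlap, and 11.78, 11.82 and 11.87 against 12.02, 12.11 and 12.22 at 96 h, which do not (0.29 ± 0.08, adjusted p = 0.0173). The effect of IFNγ on Sdhb differed between 96 and 8 h by 0.40 ± 0.12 (adjusted p = 0.0511), just short of a call. Sdha and Sdhc had mean changes of −0.06 and −0.03, not called.

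In complex IV, Cox6c was called lower at both times, with 12.76, 12.85 and 12.85 in T3 and 12.44, 12.55 and 12.56 in T3+IFNγ at 24 h (−0.31 ± 0.07, adjusted p = 0.00282) and a change of −0.29 at 48 h. Cox7c (−0.19) and Cox5b (−0.25) were also called lower at 48 h. Cox4i1, Cox4i2, Cox6a1, Cox6a2, Cox6b1, Cox7a1, Cox8a and Cox8b were called with IFNγ at no time. Cox6b2 fell to 6.36, 6.52 and 6.67 with IFNγ at 48 h, below the T3 arrays, and stood at 7.10, 7.11 and 7.29 at 96 h, above them, but neither difference was called (adjusted p = 0.131 and 0.122).

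In the ATP synthase, Atp5mpl, a small subunit of the membrane part, was the only gene of the 90 called lower at 24, 48 and 96 h. It had 11.12, 11.12 and 11.22 with T3 and 10.73, 10.78 and 10.88 with T3+IFNγ at 48 h, a change of −0.36 ± 0.07 (−21.8%, adjusted p = 0.000475), and fell by 0.25 and 0.22 at 24 and 96 h. The catalytic subunit Atp5f1b fell from 12.87, 12.88 and 12.91 to 12.62, 12.63 and 12.67 at 24 h (−0.25 ± 0.07, adjusted p = 0.018) and by 0.27 at 48 h, and Atp5f1e fell by 0.27 and 0.31. Atp5if1 moved the other way. It had 10.03, 10.08 and 10.19 in T3 against 10.33, 10.49 and 10.62 in T3+IFNγ at 48 h, and 9.62, 9.66 and 9.88 against 10.13, 10.21 and 10.48 at 96 h. Its rise was 0.38 ± 0.12 (adjusted p = 0.0358) and 0.55 ± 0.12 (adjusted p = 0.00257), and its dimmer probe sets had changes of 0.12 and 0.10 at 96 h, not called.

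**Figure D5:**
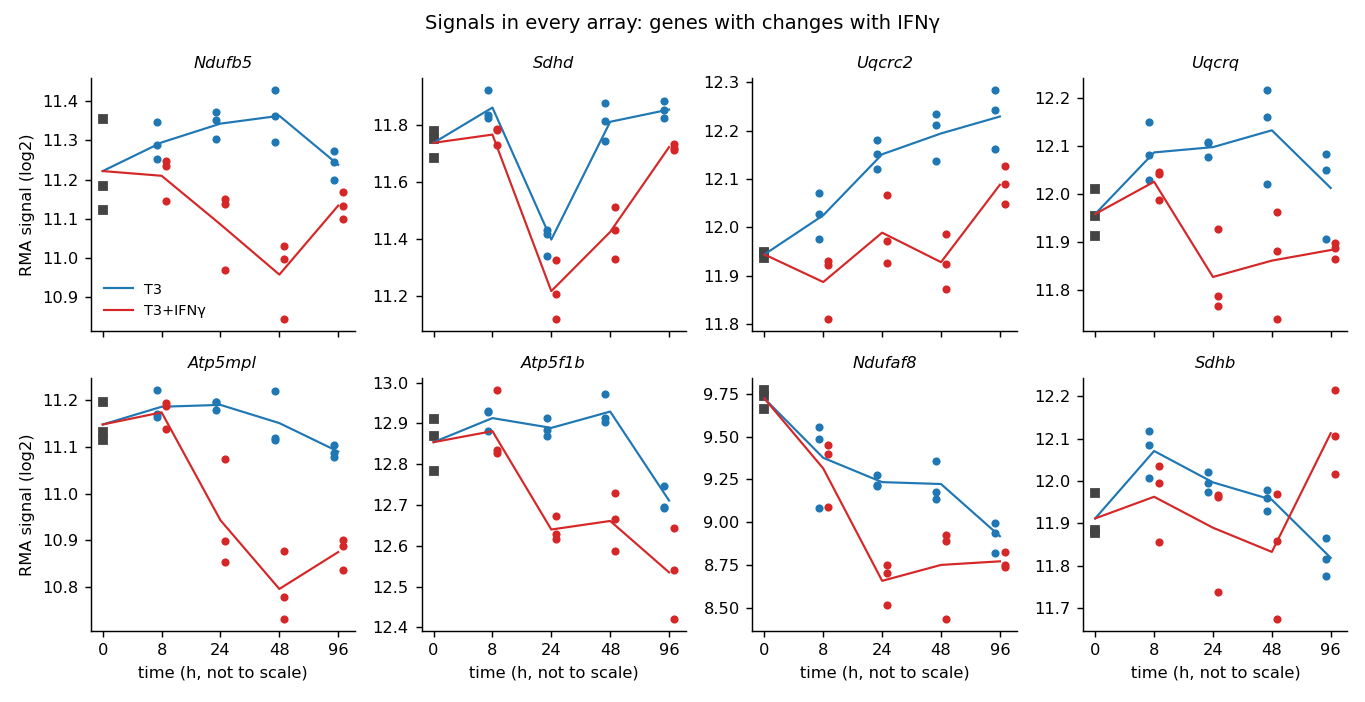
RMA signal on the log2 scale (y axis) against time (x axis, not to scale) for 8 genes; each point is 1 array, squares are PDGF, blue is T3, red is T3+IFNγ and lines join group means. Ndufb5, Sdhd and Atp5mpl are lowest with T3+IFNγ at 48 or 24 h, Uqcrc2 stays below T3 throughout, and Sdhb is above T3 at 96 h alone.

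The assembly factors had a median change of −0.33 with IFNγ at 48 h and 0.03 at 96 h. Within donors the 48 h median was −0.10, −0.46 and −0.27. Ndufaf8 had 9.21, 9.22 and 9.27 with T3 and 8.52, 8.70 and 8.75 with T3+IFNγ at 24 h (−0.58 ± 0.13, adjusted p = 0.00331) and a change of −0.47 at 48 h. Sdhaf4 had 9.09, 9.19 and 9.24 against 8.66, 8.71 and 8.73 at 24 h (−0.47 ± 0.10, adjusted p = 0.00219). Neither overlapped. Sdhaf1 fell by 0.34 and 0.45 at 24 and 48 h, Ndufaf1 by 0.65 at 48 h and Sdhaf3 by 0.49 at 24 h. None of the 10 was called at 96 h. Sdhaf2, which rose with T3, had changes of 0.32, 0.11, 0.04 and 0.11 with IFNγ at the 4 times, none called.

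Of the 14 genes called lower at 24 h, 11 (78.6%) were among the 28 called lower at 48 h (39.3% of these). Of all 14217 genes, 903 were called lower at 24 h, 1213 at 48 h and 437 (3.07% of all) at both times. The 11 were Atp5f1b, Atp5f1e, Atp5mpl, Cox6c, Ndufa2, Ndufab1, Ndufaf8, Ndufb5, Sdhaf1, Sdhaf4 and Uqcrq. The difference of the IFNγ effect between 96 and 48 h was tested as an interaction added after the data were seen. It was above 0 for 85 of 90 genes, with a median of 0.15 (all genes 0.02, genes above the median signal 0.06). No gene was called (all genes 1.61% higher and 1.2% lower), 20 were at an unadjusted p under 0.05, and 3 were called with the donor as a block. Its largest value was 1.27 ± 0.38 for Cox6b2 (adjusted p = 0.0803). Between 96 and 8 h limma also called none (all genes 2.24% higher and 2.08% lower), with 11 at an unadjusted p under 0.05 and 1 called with the block.

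Genes that serve the same organelle were counted from lists beside the 90. The shares of all genes to set beside these counts were 23.4% higher and 29.5% lower with T3 at 96 h, 7.58% and 8.53% with IFNγ at 48 h, and 7.91% and 5.63% with IFNγ at 96 h. Of 30 assembly factors outside the name rule, 7 rose and 8 fell with T3 at 96 h, and 0 rose and 7 fell with IFNγ at 48 h. Cox14 and Cox17, which serve complex IV assembly, had changes of 1.11 and 0.94 with T3 and −0.47 each with IFNγ at 48 h, while Bcs1l, which inserts the Rieske protein into complex III, had −1.38 with T3, all called. Of 12 TCA cycle genes, 1 rose (Idh3a, 0.51) and 5 fell with T3 at 96 h, Idh2 most at 0.89, and 5 fell with IFNγ at 48 h. Cyc1 fell by 0.32 with T3 at 96 h, and Hccs, the lyase that attaches haem to cytochrome c, was not called. Of 9 pyruvate dehydrogenase genes 4 rose and 2 fell with T3 at 96 h, led by the kinase Pdk2 (2.35 ± 0.25, adjusted p = 3.47e-08).

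Of 20 glycolysis and lactate genes measured, 4 rose (all genes 23.4%) and 10 fell (29.5%) with T3 at 96 h, with Eno2 highest (3.10) and Pfkp lowest (−1.86), and 5 rose (7.58%) and 1 fell (8.53%) with IFNγ at 48 h. Pfkp, the platelet-type phosphofructokinase, rose with IFNγ by 2.10 ± 0.14 at 48 h (adjusted p = 1.11e-10) and 2.20 at 96 h, Ldhb by 1.16 and 1.04 and Hk2 by 0.93 and 0.84. Among 17 regulators of mitochondrial biogenesis, 1 rose and 7 fell with T3 at 96 h. The 1 was the coactivator Ppargc1a (1.10 ± 0.14, adjusted p = 7.15e-07). Pprc1, Polg, Gabpb1 and Nrf1 had changes of −1.74, −1.70, −1.46 and −1.32, and the mitochondrial DNA packaging factor Tfam −1.02, all called. With IFNγ limma called Tfb1m lower at 24 h (−0.59, adjusted p = 0.00271) and Twnk lower at 48 h (−0.37, adjusted p = 0.0396). On the mean of the 4 times 4 were called lower (Tfb1m, Tfb2m, Twnk and Tfam) and Ppargc1a higher (0.19, adjusted p = 0.0454). Of all genes 18.5% were called lower and 12.7% higher on that mean. Of 13 carriers and outer membrane genes 3 rose and 8 fell with T3 at 96 h, with the mitochondrial creatine kinase Ckmt1 falling by 4.34 ± 0.17. Of 8 superoxide and redox genes 2 rose with IFNγ at 96 h. They were Sod1 (0.27) and Sod2, the superoxide dismutase of the mitochondrial matrix (0.98 ± 0.22, adjusted p = 0.00282), while Cat rose with T3 by 1.44.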

How the data were processed

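The authors deposited one table of RMA values on the log2 scale for 31099 probe sets in 27 arrays (RMA and limma are named in the submitters' processing notes without versions). RMA corrects background, normalizes by quantiles and summarizes probe sets. Small changes of dim or very bright probe sets can be compressed in array values. The values (2.28 to 14.5) were used as deposited. Gene symbols came from the platform annotation of 2016: 20826 probe sets have 1 symbol, 436 several and 9780 none, and 57 controls were left out. Each of the 14217 genes was represented by its brightest probe set on average. All 90 members were found in the RefSeq table (GRCr8) under the same symbol.

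R 4.3.3 with limma 3.58.1 (lmFit, eBayes) fitted 1 mean per group over 27 arrays, with Benjamini-Hochberg adjustment over all genes in each comparison. Tables and figures used Python 3.11.15, pandas 2.3.3, NumPy 2.4.6 and matplotlib 3.10.9. Motif shares used the first window listed per gene. On simulated data for T3+IFNγ against T3 at 96 h with 14217 genes, 58.2% of 1.5-fold, 91% of 2-fold and 100% of 4-fold changes were called, beside 5 unchanged genes. The simulation changed 200 genes in that group alone, whereas the data had 1124 genes called higher and 800 lower. The Benjamini-Hochberg cutoff depends on the number of changed genes, so these shares may not carry over to the data. The simulated arrays were independent, without the correlation within donors. No change smaller than 1.5-fold was simulated, so these shares do not apply to smaller changes. With 3 arrays a group, precision is limited by their number.

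The labels name the donor of each array, so replicate numbers pair the samples: deviations from group means correlated with a median r of 0.31 within a donor and −0.17 between donors. Genes were named by a rule: in each class up to 4 called genes with the largest change for T3 at 96 h and for the mean effect of IFNγ, called genes against their class, paired isoforms, the 3 largest interactions, all of complex II, up to 3 called genes per other list, and Sod2 and Ppargc1a. Ndufb8, Ndufa11, Ndufa12, Ndufb4, Ndufaf1, Ndufaf5, Tfam and others outside the rule were named after their values were seen. Members, lists and tests were chosen with earlier results of these data known. The alternatives were a donor block, each donor left out, 2 arrays of donor 2 left out, median centring, genes above the median signal, the mean of probe sets, and a trended robust fit.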

Additional observations from a re-analysis of the deposited data

How the results depend on the processing

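Of 139 named changes called in the main setting, direction was kept under every alternative that tested them except for Atp5po with T3 at 96 h, which became 0.0293 (adjusted p = 0.763) with the mean of probe sets. With the donor as replicate block, all 139 kept their call, T3 at 8 h had 12 calls among the 90 genes, IFNγ at 8 h 2, and the interactions 1 (96 against 8 h) and 3 (96 against 48 h); no other count moved by over 1.5 times. Centring arrays on their median gave 45 calls for IFNγ at 48 h and 14 at 96 h. The trended robust fit gave 7 for T3 at 8 h, 22 and 9 for IFNγ at 24 and 96 h, and 1 for each interaction. Genes above the median signal gave 8 for T3 at 8 h and 1 for each interaction. The mean of probe sets gave 1 for IFNγ at 8 h and 1 for each interaction. Without the 2 early T3+IFNγ arrays of donor 2 there were 7 for T3 at 8 h, 1 and 5 for IFNγ at 8 and 24 h, and 1 for the interaction of 96 against 48 h. Leaving out each donor in turn gave 0 to 2 calls for T3 at 8 h, 16 to 22 at 24 h, 16 to 31 at 48 h and 24 to 30 at 96 h, and 0 to 0, 1 to 5, 3 to 24 and 1 to 1 for IFNγ at the same times, 17 to 39 for its mean, 0 to 1 for each interaction and 38 to 50 for the F test. Each of these fits had fewer arrays, and 42, 70 and 71 of the 139 changes lost their call without donor 1, 2 and 3. Why more were lost without donor 2 or 3 than without donor 1 was not tested. Of 162 medians of the complexes under alternatives, 143 moved by less than the spread between donors. Signals near the bottom of the range, as for Cox7b2 and Cox8b, limit what can be seen.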

Other observations

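The annotation gives 7 further probe sets several symbols, one of them that of a respiratory chain or ATP synthase gene, and these lie outside the 90 genes. The probe set of Ndufa10 and Ndufa10l1 rose with T3 at 48 h by 0.53 (limma over all probe sets, adjusted p = 6.99e-05) and fell with IFNγ at that time by 0.41 (adjusted p = 0.00378). The probe set of Atp5mc2 and Atp5mc2l1, of which Atp5mc2 encodes the membrane ring subunit of the ATP synthase, fell with IFNγ by 0.29 at 24 h and 0.40 at 48 h (adjusted p = 0.0443 and 0.00416), and that of Atp5mc1 and Atp5mc1l1 fell by 0.37 at 24 h (adjusted p = 0.0461). The probe set of Uqcrb and Uqcrbl1 fell with T3 at 48 h by 0.29 (adjusted p = 0.00321) and had changes of 0.03 to 0.06 with IFNγ at 24 to 96 h, not called. Those of Cox5a, Cox7a2 and Ndufs5 were not called with IFNγ at 24, 48 or 96 h, and the one for Cox5a, at a mean signal of 12.43, had a change of −0.05 with IFNγ at 48 h where the single-symbol probe set of Cox5a, at 8.62, had −0.47 (adjusted p = 0.0769).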
